A study of Homo sapiens with 6 samples.

Results

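The mitotic kinesins are motor proteins that move chromosomes and build, shorten or bundle microtubules while a cell divides. In all, 10 of them were followed here by symbol (KIF2C, KIF4A, KIF11, KIF14, KIF15, KIF18A, KIF18B, KIF20A, KIF20B and KIF23), and all 10 were present among the 16376 genes of the deposited table. The cells were HOS, a human osteosarcoma line whose genotype is labelled WT in every sample. Of the 6 libraries, 3 came from cells given Agrimol B, a plant phloroglucinol, for 24 h, and 3 from control cells whose treatment is labelled None. The labels give neither the dose nor a solvent for the control cells, and do not state separate cultures for the 3 libraries of a group. The p-values therefore set the difference between groups only against the variation among these libraries, and that variation may be technical.

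Kinesins use ATP to walk along microtubules or to act on their ends. Those of mitosis divide the work: KIF11 pushes the spindle poles apart and KIF15 assists it, KIF2C takes microtubules apart, KIF18A and KIF18B control microtubule length, KIF4A organises chromosome arms and the midzone, and KIF20A, KIF20B, KIF23 and KIF14 act late, in the midzone and in cytokinesis. The genes of many of them are transcribed mainly in G2 and M phase. Promoters of that class often carry a short element called the cell cycle genes homology region (CHR), to which the MuvB complex binds together with RBL1 or RBL2 in resting cells and with MYBL2 and FOXM1 in dividing cells.

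With Agrimol B all 10 mitotic kinesin transcripts fell, by 1.13-fold to 3.00-fold as the ratio of group means. Levels are in FPKM, which is scaled to transcript length, so that levels of different genes can be compared. KIF20A, a kinesin of the central spindle that is needed for cytokinesis, fell by the widest margin and KIF4A by the narrowest. In each of the 10 genes the 3 Agrimol B values lay below the 3 control values, whereas this held for 26.0% of the 12143 genes tested. By limma, all 10 passed an adjusted p of 0.05 in the downward direction, against 21.4% of the genes tested (2598 lower and 3713 or 30.6% higher, 52.0% in either direction). The members and the lists below were chosen with earlier results of these data known, so setting their counts beside such shares is description, not a test. With median-ratio scaling 3164 genes were lower and 3067 higher, and with quantile normalization 3083 and 3101, so the excess of rises over all genes depends on the scaling. Differences are on the log2(FPKM + 1) scale, Agrimol B minus control. The median of the 10 was -0.69 and that of all tested genes 0.07. Of the 10, 6 were lower by at least 1.5-fold, against 9.09% of the tested genes that were called and lower by that much. All 10 also had a mean of at least 1 FPKM in the Agrimol B libraries alone, so none entered the test only through the group in which it was high. Since the RNA came from whole cultures, fewer cells in G2 and M phase and less transcript per dividing cell cannot be told apart.

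**Figure D1:**
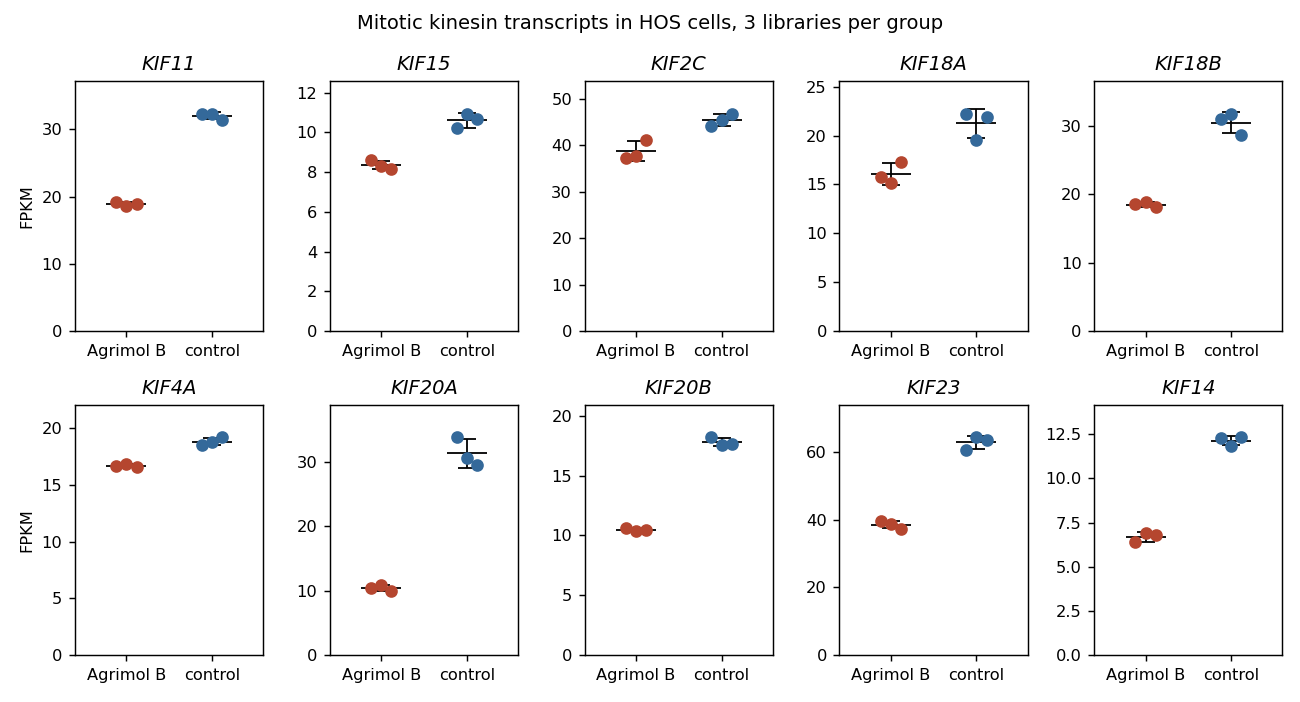
FPKM of each mitotic kinesin (y axis, from 0) in the 3 Agrimol B libraries (red, left) and the 3 control libraries (blue, right); bars give the mean ± SD. The groups are apart in all 10 panels, from 10.4 against 31.4 FPKM on average for KIF20A to 16.7 against 18.8 FPKM for KIF4A.

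Library totals ranged from 352990 to 355241 FPKM with Agrimol B and from 355550 to 359537 FPKM in control. The number of reads is not given by FPKM values. Ratios of very low values placed the depths at 1.00 to 1.19 times that of control replicate 1 in the Agrimol B libraries, and at 0.99 to 1.04 times in control replicates 2 and 3. Of 9 mesenchymal and bone markers in the table, VIM was the most abundant, at 540.2 ± 7.39 FPKM with Agrimol B and 704 ± 6.96 FPKM in control. Of 8 tested, 6 fell and 1 rose, against 21.4% and 30.6% of all tested genes. Their median of -0.69 was the same to 2 decimals as that of the mitotic kinesins, but they ranged from -1.42 to 0.60. COL1A2, a chain of type I collagen, fell 2.73-fold, the bone phosphatase ALPL 2.15-fold and the surface protein THY1 2.03-fold, while COL5A1 rose 1.53-fold. The bone regulator RUNX2 stood at 6.25 ± 1.68 FPKM with Agrimol B and 5.15 ± 0.377 FPKM in control and was not called, while BGLAP, made by mature osteoblasts, was near 0 in both groups (0.0850 ± 0.0582 and 0.146 ± 0.0812 FPKM). Summed, these markers reached 1062 to 1121 FPKM with Agrimol B and 1504 to 1598 FPKM in control. The 7 epithelial markers summed to 15.2 to 36.1 FPKM with Agrimol B and 14.9 to 16.9 FPKM in control. EPCAM, the most abundant of them on average, was at 14.0 ± 1.01 and 13.8 ± 0.665 FPKM. Agrimol B replicate 3 also held 5.87 FPKM of the keratin KRT14 and 10.4 FPKM of KRT5. KRT5 stood at 0.206 and 0.699 FPKM in the other Agrimol B libraries and 0 to 0.735 FPKM in control. KRT19 was at 0, 3.17 and 2.68 FPKM with Agrimol B and 0 to 0.209 FPKM in control. Of the 5 epithelial markers tested, only ESRP1 was called. It rose 2.44-fold to 1.89 ± 0.0454 FPKM, against 0.774 ± 0.154 FPKM in control. Without Agrimol B replicate 3 all 10 mitotic kinesins were still called lower, but KRT19 and ESRP1 were not confined to that library. The 4 leukocyte markers in the table summed to 7.88 to 11.0 FPKM with Agrimol B and 5.35 to 5.86 FPKM in control. Most of it was CD68, a lysosomal protein (7.49 to 10.3 FPKM and 4.02 to 4.59 FPKM), which was called higher. CD14 was called lower, at 0.588 ± 0.190 FPKM with Agrimol B and 1.44 ± 0.329 FPKM in control. The defining PTPRC was listed at 0 in 5 of the 6 libraries. The 6 endothelial markers summed to 0.963 to 1.32 FPKM with Agrimol B and 3.57 to 4.03 FPKM in control, led by TEK. KDR, too low to be tested, went against that sum. It was at 0.267 ± 0.0147 FPKM with Agrimol B and 0.0594 ± 0.00669 FPKM in control. The part of such cells in the results was not tested.

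Short sequence features recurred in the promoters, though none was in all 10. The 7 stretches are shown because, on the log2 scale, these genes had the largest falls (KIF20A, KIF14, KIF11, KIF20B and KIF23) and the smallest (KIF2C and KIF4A). They were taken from the RefSeq table on GRCh38.p14, which held a promoter for all 10, from 250 bases before to 50 after the transcript start. Shown are the 100 bases before the start, unless these held no TTTGAA or TTTAAA. The stretch was then moved to hold one. KIF14 and KIF2C thus run from 90 bases before to 10 after the start, and KIF20B from 17 to 46 bases after it. This leaves out the KIF20B matches to CCAAT, which begin 131 and 98 bases before the start. Capitals mark matches to TTTGAA, the core of the CHR (TTCAAA on the other strand), to CCAAT, the box bound by NF-Y (ATTGG on the other strand), and to TTTAAA. The last was added after the letters had been read and reads the same on both strands.
KIF20A: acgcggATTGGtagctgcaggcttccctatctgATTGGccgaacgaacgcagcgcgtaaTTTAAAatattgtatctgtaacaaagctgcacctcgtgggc
KIF14: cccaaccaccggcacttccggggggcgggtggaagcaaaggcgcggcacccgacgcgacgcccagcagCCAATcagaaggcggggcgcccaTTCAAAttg
KIF11: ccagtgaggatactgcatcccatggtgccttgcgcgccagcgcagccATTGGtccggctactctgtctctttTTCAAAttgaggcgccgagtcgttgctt
KIF20B: cgccattgTTTGAATTTGAAaacggtaaca
KIF23: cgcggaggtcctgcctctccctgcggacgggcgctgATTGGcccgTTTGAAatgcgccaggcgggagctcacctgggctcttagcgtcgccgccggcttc
KIF2C: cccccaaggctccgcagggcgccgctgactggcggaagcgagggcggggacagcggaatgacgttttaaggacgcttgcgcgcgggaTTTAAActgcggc
KIF4A: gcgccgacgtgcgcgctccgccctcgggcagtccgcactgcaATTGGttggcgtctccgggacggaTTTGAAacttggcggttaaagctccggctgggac
These are chr5:138179012-138179111 (plus strand), chr1:200620742-200620841 (minus), chr10:92593030-92593129 (plus), chr10:89701606-89701635 (plus), chr15:69414249-69414348 (plus), chr1:44739747-44739846 (plus) and chrX:70290004-70290103 (plus).

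TTTGAA occurred in 8 of the 10 promoters, in each case within 100 bases before the RefSeq start or after it. On either strand it occurred anywhere in 15.2% of all 35116 promoters of the same length and in that nearer part in 7.05%. All positions are from the RefSeq start, which differs from the GENCODE gene start given below. Among the stretches shown, by GENCODE the KIF14 match lies before its gene, and the KIF20A and KIF23 stretches lie wholly inside their genes. The TTTAAA of KIF2C and the TTTGAA pair of KIF20B also lie inside their genes by GENCODE. By RefSeq the nearest to the start was that of KIF14, whose match begins 2 bases into the transcript, and KIF20B carried a pair of adjoining matches at 25 to 36 bases into it. KIF20A and KIF2C had no TTTGAA but a TTTAAA close to the start, at 41 to 36 bases before it in KIF20A and across it in KIF2C. That hexamer, added after the letters had been read, was in 4 of the 10 promoters and in the nearer part of 2. It was found in 12.2% of all promoters and in the nearer part of 5.37%. CCAAT was present in 8 of the 10 promoters, all except KIF15 and KIF2C, and in 34.6% of all promoters. Of the tested genes with a promoter in the table, 43.4% had CCAAT, 13.4% TTTGAA and 10.8% TTTAAA. No matches of different motifs shared a base in these 10 promoters. Among the 9645 tested genes with a promoter in the table, 26.3% of those with TTTGAA were called lower, and 20.4% of those without it. The presence of these letters says nothing of binding, which was not measured.

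**Figure D2:**
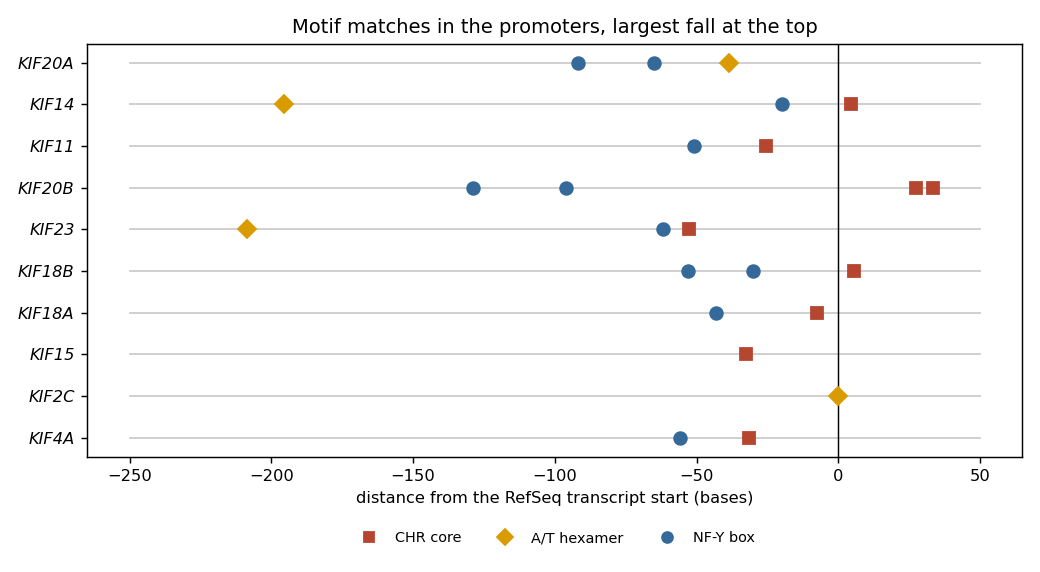
Position of motif matches from the RefSeq transcript start (x axis, bases; negative is upstream) in the 10 promoters, ordered from the largest log2 fall of the transcript (KIF20A, top) to the smallest (KIF4A, bottom). Squares are TTTGAA, diamonds TTTAAA and circles CCAAT. Of the 10 promoters, 8 have a square close to the start. The other 2, KIF20A and KIF2C, have a diamond there, a motif added after the letters had been read.

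The kinesins that build the bipolar spindle differed in how far they fell. KIF11, also called Eg5, slides antiparallel microtubules apart (chromosome 10, 92593286 to 92655395, plus strand). It stood at 19.3, 18.6 and 18.8 FPKM with Agrimol B, against 32.3, 32.2 and 31.4 FPKM in control. The highest Agrimol B library thus lay far below the lowest control library, and the gene fell 1.69-fold (log2 difference -0.73, 95% confidence interval -0.82 to -0.63, limma adjusted p = 6.29e-05). KIF15, which can take over from KIF11 once a spindle has formed, lies on chromosome 3 (44761717 to 44873376, plus strand). Its values were 8.59, 8.32 and 8.16 FPKM with Agrimol B, against 10.2, 10.9 and 10.7 FPKM in control. The groups did not overlap, and the fall was 1.27-fold (log2 difference -0.31, interval -0.43 to -0.19, limma adjusted p = 0.00295).

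Among the kinesins that act on microtubule ends, KIF18B fell the most. It works with KIF2C on astral microtubules outside the spindle (chromosome 17, 44924709 to 44947711, minus strand). It had 18.5, 18.9 and 18.1 FPKM in Agrimol B libraries, against 31.0, 31.8 and 28.7 FPKM in control libraries. That was a fall of 1.65-fold (log2 difference -0.69, interval -0.82 to -0.56, limma adjusted p = 0.000171). KIF18A, which damps chromosome movements at the metaphase plate, is at chromosome 11 (28020620 to 28108308, minus strand). It measured 15.7, 15.1 and 17.3 FPKM with Agrimol B, against 22.2, 19.5 and 21.9 FPKM in control. Control replicate 2 was the lowest of its group but still above every Agrimol B library, and the fall was 1.32-fold (log2 difference -0.38, interval -0.56 to -0.20, limma adjusted p = 0.00618). KIF2C, or MCAK, a depolymerase that helps correct wrong attachments at kinetochores, lies on chromosome 1 (44739818 to 44767767, plus strand). Its levels were 37.3, 37.6 and 41.2 FPKM with Agrimol B, against 44.1, 45.3 and 46.7 FPKM in control. Agrimol B replicate 3 came close to the lowest control value, and the fall was 1.17-fold (log2 difference -0.23, interval -0.36 to -0.10, limma adjusted p = 0.0135).

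KIF4A, which binds chromosome arms and sets the length of the midzone bundles, changed the least (chromosome X, 70290090 to 70420832, plus strand). Its values were 16.7, 16.8 and 16.5 FPKM with Agrimol B, against 18.5, 18.8 and 19.2 FPKM in control. The gap was small but the libraries of each group were close together, and the 1.13-fold fall passed the test (log2 difference -0.17, interval -0.26 to -0.07, limma adjusted p = 0.0151). Without control replicate 3 the call was lost (log2 difference -0.15, adjusted p = 0.0513; 0.00372 to 0.0549 over all alternatives). KIF4B, a near-identical copy of KIF4A, was listed at 0.0212 ± 0.00658 FPKM with Agrimol B and 0.0225 ± 0.00386 FPKM in control, too low to be tested.

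KIF20A, KIF20B, KIF23 and KIF14, which act in cytokinesis, each fell by more than 1.5-fold. KIF20A, or MKLP2, carries the chromosomal passenger complex to the central spindle (chromosome 5, 138178719 to 138187715, plus strand). It stood at 10.4, 10.9 and 9.97 FPKM in Agrimol B libraries, against 33.9, 30.7 and 29.5 FPKM in control libraries. All 3 Agrimol B values were about 1 FPKM or less apart, and the fall was 3.00-fold (log2 difference -1.50, interval -1.66 to -1.34, limma adjusted p = 3.52e-05). On this scale 53 of the 12143 tested genes (0.436%) fell further. KIF20B, its relative, which acts in the completion of cytokinesis, lies on chromosome 10 (89701610 to 89774939, plus strand). It had 10.7, 10.3 and 10.5 FPKM with Agrimol B, against 18.2, 17.6 and 17.7 FPKM in control, a fall of 1.70-fold (log2 difference -0.71, interval -0.82 to -0.61, limma adjusted p = 8.17e-05). The spread within each group was small beside that gap.

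KIF23, or MKLP1, forms the centralspindlin complex with RACGAP1 (chromosome 15, 69414246 to 69448427, plus strand). It was the most abundant member in control, with 39.5, 38.9 and 37.3 FPKM in Agrimol B libraries, against 60.5, 64.3 and 63.6 FPKM in control libraries. It fell 1.63-fold (log2 difference -0.69, interval -0.80 to -0.58, limma adjusted p = 9.91e-05). KIF14, which recruits citron kinase to the midbody, was the second lowest in control and the lowest with Agrimol B (chromosome 1, 200551497 to 200620734, minus strand). Its values were 6.39, 6.90 and 6.79 FPKM with Agrimol B, against 12.3, 11.8 and 12.3 FPKM in control. The fall of 1.82-fold was the second largest of the 10 (log2 difference -0.77, interval -0.90 to -0.65, limma adjusted p = 0.000108). The gene coordinates are those of GENCODE release 29 on GRCh38 (hg38). By that annotation KIF20A overlaps BRD8 and CDC23, KIF18A overlaps METTL15 and KIF4A overlaps PDZD11 on the opposite strand, and KIF15 overlaps TMEM42 on its own strand. The sources used here do not say whether counting used strand, so reads of such neighbours could have been counted to either gene.

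**Figure D3:**
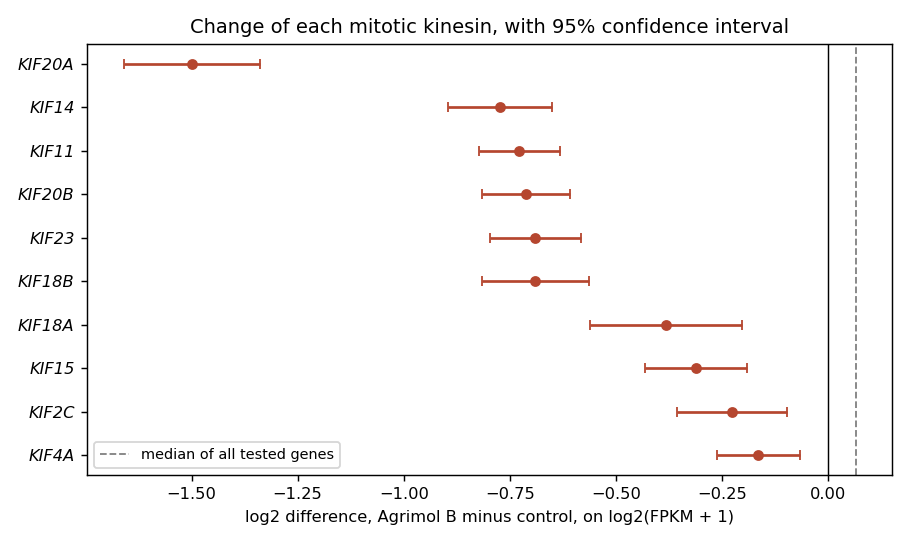
Log2 difference of each mitotic kinesin, Agrimol B minus control on the log2(FPKM + 1) scale (x axis), with the 95% confidence interval from limma, ordered by size from the largest fall (top). KIF20A at -1.50 stands apart, 5 members lie between -0.77 and -0.69 and 4 between -0.38 and -0.17; the dashed line marks the median of all tested genes (0.07).

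By size the falls formed an order in which the intervals of several neighbours overlapped. Such overlap is not a test of the difference between 2 genes. On the log2 scale a larger fall than that of KIF14 was seen in 3.85% of tested genes, and than that of KIF4A in 28.1%. The interval of KIF20A overlapped that of no other member. The intervals of KIF14, KIF11, KIF20B, KIF23 and KIF18B overlapped one another, as did those of KIF18A, KIF15 and KIF2C, and that of KIF4A overlapped all 3 of these. Related members were also compared within each library, as the difference of their log2(FPKM + 1) values. KIF20A exceeded KIF20B in control, where the plain ratio of the 2 levels was 1.86, 1.75 and 1.67, but with Agrimol B the ratio was 0.979, 1.06 and 0.953. On the log2 scale the difference moved by -0.79 (-0.01 ± 0.07 with Agrimol B and 0.78 ± 0.08 in control, SD, n = 3 each). KIF11 exceeded KIF15 by a ratio of 2.24, 2.24 and 2.31 with Agrimol B, against 3.16, 2.94 and 2.94 in control, a move of -0.42 on the log2 scale. KIF18A stood at 0.848, 0.803 and 0.954 times KIF18B with Agrimol B, against 0.718, 0.614 and 0.764 times in control, a move of 0.31. In each of the 3 pairs the groups did not overlap. The exact permutation test (two-sided, 20 splits) gave p = 0.1 for each pair, also 0.1 after adjustment over the 3 pairs, and 0.1 is the smallest p that 3 against 3 libraries allow.

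**Figure D4:**
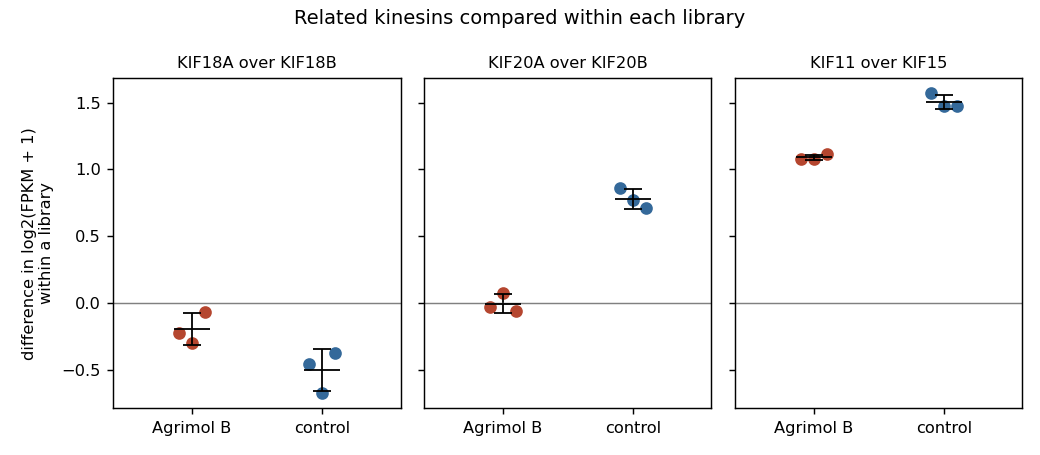
Difference between the log2(FPKM + 1) values of 2 related kinesins within a library (y axis) in the Agrimol B libraries (red, left) and the control libraries (blue, right), with mean ± SD. KIF20A and KIF20B are nearly level with Agrimol B (-0.01) and 0.78 apart in control; the groups do not overlap in any of the 3 pairs.

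As a group, the 10 transcripts summed to 183, 182 and 185 FPKM with Agrimol B, against 283, 283 and 282 FPKM in control. The sum therefore differed far more between groups than within them, and was lower by 1.54-fold. Its make-up shifted as well. KIF20A supplied 5.70 ± 0.294% of the sum with Agrimol B and 11.1 ± 0.771% in control (n = 3 each). KIF2C supplied 21.1 ± 1.05% and 16.1 ± 0.510%, and KIF4A 9.10 ± 0.133% and 6.66 ± 0.138%. The 10 members made up 26.4 ± 0.309% of the summed FPKM of all 40 kinesins in the table with Agrimol B, and 35.3 ± 0.279% in control.

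Other kinesins that work in division mostly fell too. Of 4 tested outside the 10, 3 fell and 0 rose (median -0.51), against 21.4% and 30.6% of all tested genes. CENPE, which moves chromosomes along the spindle to the plate, had 11.1, 11.4 and 10.4 FPKM with Agrimol B, against 18.2, 18.0 and 19.3 FPKM in control, a fall of 1.69-fold. KIFC1, a minus-end motor that gathers spindle poles, had 28.8, 26.5 and 27.2 FPKM with Agrimol B, against 44.3, 46.1 and 46.0 FPKM in control, a fall of 1.65-fold. Both changes were close to that of KIF11. The chromosome arm motor KIF22 fell 1.24-fold to 45.1 ± 0.995 FPKM, against 55.9 ± 1.90 FPKM in control (limma adjusted p = 0.00176). KIF2A, a close relative of KIF2C that also acts outside mitosis, stood at 32.7 ± 2.10 FPKM with Agrimol B and 35.0 ± 0.778 FPKM in control and did not pass the test (adjusted p = 0.195).

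The kinesins with no core task in the spindle, many of them carriers of vesicles and organelles, gave mixed results. Of 23 tested, 2 fell and 9 rose, where 21.4% of all tested genes fell and 30.6% rose, and their median of 0.12 was near the 0.07 of all tested genes. With median-ratio scaling 3 fell and 4 rose, so the excess of rises depends on the scaling, and without any 1 library the number of rises was between 5 and 7. The neuronal vesicle carrier KIF1A had the largest rise of those tested on the log2(FPKM + 1) scale (0.67), with 57.8, 45.1 and 56.3 FPKM in Agrimol B libraries, against 31.4, 30.4 and 37.0 FPKM in control libraries (1.61-fold, limma adjusted p = 0.0046). KIF21B rose 1.75-fold to 2.77 ± 0.138 FPKM, against 1.58 ± 0.115 FPKM in control. KIF26B averaged under 1 FPKM over all libraries and was not tested. It stood 4.39-fold higher with Agrimol B, at 1.58 ± 0.0505 FPKM against 0.360 ± 0.0533 FPKM, without overlap. KIF26A, an atypical kinesin, fell 1.65-fold to 6.17 ± 0.186 FPKM, against 10.2 ± 0.168 FPKM in control. All 4 tested genes among the kinesin light chains and the kinesin-2 adaptor rose, against 30.6% of all tested genes. KLC2 rose 1.55-fold, KLC4 1.55-fold and KIFAP3 1.46-fold. Of 20 tested subunits and regulators of dynein and dynactin, the minus-end motor, 3 fell and 7 rose (median 0.11), close to the 21.4% and 30.6% of all tested genes, and with median-ratio scaling 7 fell and 4 rose. The dynein regulator NDEL1 rose 1.83-fold. The heavy chain DYNC1H1 rose 1.57-fold, with 184, 110 and 141 FPKM with Agrimol B, against 90.2, 97.7 and 90.1 FPKM in control (limma adjusted p = 0.0302). The light chain DYNLT1 rose 1.48-fold, with 60.3, 61.9 and 60.6 FPKM, against 56.1, 33.0 and 34.6 FPKM (limma adjusted p = 0.0453). Its control replicate 1 thus lay near the Agrimol B values.

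**Figure D5:**
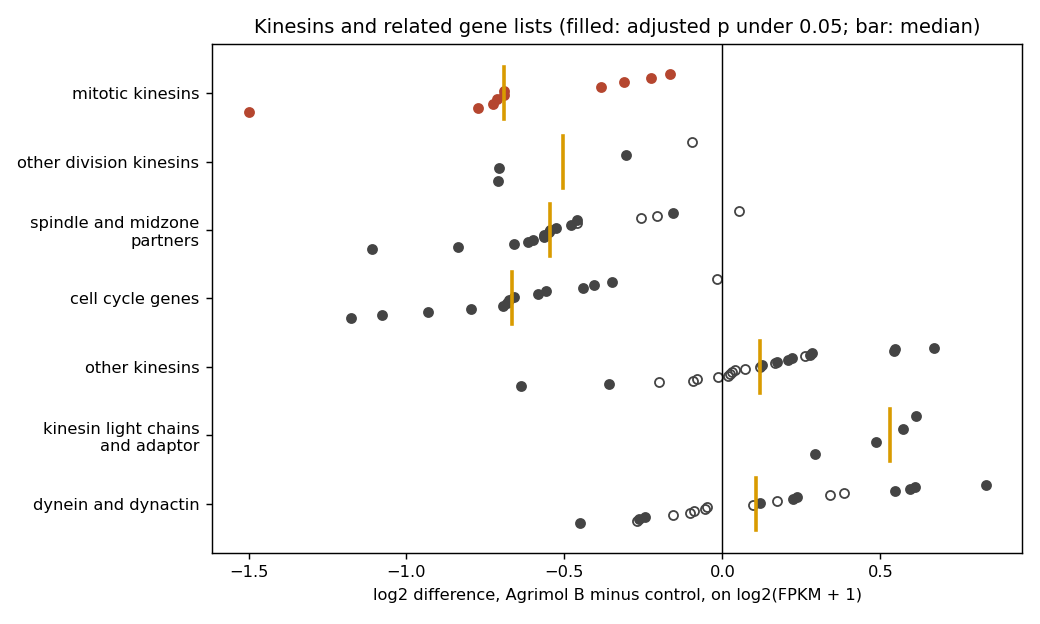
Log2 difference (x axis, Agrimol B minus control on the log2(FPKM + 1) scale) of every tested gene in 7 lists; filled points passed an adjusted p of 0.05, open points did not, and yellow bars are medians. Mitotic kinesins (median -0.69), their partners (-0.55) and cell cycle genes (-0.67) lie mostly left of 0, and other kinesins (0.12), light chains with the adaptor (0.53) and dynein with dynactin (0.11) have medians right of 0, although with median-ratio scaling 7 of the last list fell and 4 rose.

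Transcripts of most proteins listed as partners of the mitotic kinesins in the spindle and midzone fell as well. Of 17 spindle and midzone partners tested, 12 fell and 0 rose, with a median of -0.55, against 21.4% and 30.6% of all tested genes. The other 5, among them HMMR at 0.05, were not called. The spindle kinase AURKA fell 2.16-fold to 45.9 ± 8.32 FPKM, against 99.1 ± 2.72 FPKM in control. The cytokinetic scaffold ANLN fell 1.79-fold to 44.9 ± 6.45 FPKM, against 80.4 ± 3.80 FPKM in control. INCENP, the scaffold of the passenger complex that KIF20A carries, fell 1.62-fold to 15.7 ± 0.504 FPKM, against 25.4 ± 2.44 FPKM in control. Some binding partners are named in addition, outside the rule for named genes. RACGAP1, the partner of KIF23, fell to 29.5 ± 1.27 FPKM with Agrimol B, against 44.1 ± 2.85 FPKM in control (log2 difference -0.56, limma adjusted p = 0.000668). ECT2, which centralspindlin recruits, fell 1.46-fold, and the citron kinase CIT, which KIF14 recruits, 1.42-fold. TPX2, which binds KIF11 and KIF15 on the spindle, fell 1.52-fold. PRC1, which brings KIF4A to the midzone, had 68.2, 43.3 and 57.6 FPKM with Agrimol B, against 62.1, 92.6 and 94.3 FPKM in control. Its groups overlapped and it did not pass the test (limma adjusted p = 0.0807). KIF1BP, which binds KIF15 and KIF18A and blocks their motors, did not pass either, at 14.2 ± 1.54 FPKM with Agrimol B and 16.0 ± 0.534 FPKM in control (adjusted p = 0.133).

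Most markers of cycling cells moved in the same direction as the kinesins. Of 14 tested cell cycle genes, 13 fell and 0 rose (median -0.67), against 21.4% and 30.6% of all tested genes. MKI67, the Ki-67 antigen, fell 1.94-fold, CCNB1, the mitotic cyclin, 2.14-fold, and TYMS, which makes thymidylate for DNA synthesis, 2.24-fold. Their part in the change of the kinesins was not tested. Of 21 tested regulators of transcription in G1/S and G2/M, 13 fell and 3 rose (median -0.25), against 21.4% and 30.6% of all tested genes. E2F8 fell 2.87-fold. E2F7, like E2F8 a repressor of the E2F family, rose 3.21-fold to 43.5 ± 1.20 FPKM, against 13.6 ± 1.24 FPKM in control, and LIN37, a subunit of MuvB, rose 2.35-fold. MYBL2, FOXM1, RBL1, RBL2 and the other listed MuvB subunits are named here outside the rule because they act at CHR promoters. RBL1 fell 1.26-fold and RBL2 1.11-fold (limma adjusted p = 0.00905 and 0.034). Of the MuvB subunits besides LIN37, RBBP4 fell 1.44-fold, and LIN9, LIN52 and LIN54 were not called. MYBL2 fell 1.94-fold to 70.1 ± 1.34 FPKM with Agrimol B, against 136 ± 3.66 FPKM in control (limma adjusted p = 2.63e-05). FOXM1 had 17.2, 18.1 and 18.8 FPKM with Agrimol B, against 27.9, 28.8 and 29.1 FPKM in control, a fall of 1.59-fold (limma adjusted p = 0.000179). Of 5 tested CDK inhibitors, 1 fell and 1 rose (2 fell and 0 rose with quantile normalization), too few to set apart from the 21.4% and 30.6% of all tested genes. CDKN2C, which blocks CDK4 and CDK6, fell 3.10-fold, and CDKN1A, or p21, rose 1.27-fold to 7.94 ± 0.785 FPKM, against 6.26 ± 0.242 FPKM in control, a call that was lost without control replicate 1 or 2 and with quantile normalization.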

How the data were processed

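RNA of 6 HOS libraries was sequenced after Trizol extraction; per the labels' protocols, the kit was a stranded KAPA one for mRNA. The authors deposited FPKM values, 1 column per library. HISAT, Trimmomatic, cutadapt, FastQC and hg38 appear, without roles or versions, per the submitters' processing notes; those sources name no FPKM program, annotation or filter. Control columns carry the letters of the control descriptions in reversed order and were matched by number. No column was left unused (0).

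From the deposited FPKM values, log2(FPKM + 1) was computed for the 12143 genes averaging 1 FPKM or more and fitted with limma 3.58.1 in R 4.3.3 (group term, variance trend, two-sided). P-values were adjusted by Benjamini-Hochberg over all tested genes. Folds are ratios of mean FPKM and ± is the SD of 3 libraries. Depth was judged from ratios of values under 0.05 FPKM. Exact tests used scipy 1.17.1 and figures matplotlib 3.10.9, under Python 3.11.15 with numpy 2.4.6 and pandas 2.3.3. The fit was tested on simulated data.

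The members and the 13 lists (159 genes, 152 in the table) were chosen with earlier results of these data known. Named are all members, the up to 3 called genes with the largest log2 difference in each list other than cell type markers, the most abundant marker of each cell type, and KIF22, KIFC1, CENPE and KIF2A. Outside that rule, chosen after their values were seen, are KIF4B, KIF26B, KIF1BP, HMMR, RUNX2, BGLAP, COL1A2, ALPL, THY1 and COL5A1. So are KRT5, KRT14, KRT19, ESRP1, PTPRC, CD14, KDR and the partners and regulators so marked in the text. Alternatives were a pseudocount of 0.1, no filter or a filter at 5 FPKM, median-ratio scaling, quantile normalization, moderation without trend, a replicate block and each library left out.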

Additional observations from a re-analysis of the deposited data

How the results depend on the processing

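Of 130 values of the 10 mitotic kinesins under 13 alternatives, 128 kept direction and call, and none reversed. The exceptions were KIF4A with the replicate block (-0.17, adjusted p = 0.0549) and without control replicate 3 (adjusted p = 0.0513; -0.18 to -0.15 over all single libraries left out). The median of the 10 was -0.76 with median-ratio scaling and -0.74 with quantile normalization, against -0.69. Rises among the other kinesins numbered 5 with a filter at 5 FPKM or with the replicate block, 4 with median-ratio scaling or quantile normalization, and 5 to 7 without any 1 library, against 9. For dynein and dynactin, 7 fell with median-ratio scaling and 6 with quantile normalization, against 3; 4 rose with median-ratio scaling and 4 to 6 without any 1 library, against 7. Of the CDK inhibitors, 2 fell with median-ratio scaling or quantile normalization, against 1, and 0 rose with quantile normalization and 0 to 1 without any 1 library, against 1. The cause was not tested. Same-numbered libraries were not treated as paired. Correlations of their deviations from the group means were 0.037, -0.006 and -0.015, which shows no sign of pairing but does not settle it. The replicate block gave 2384 lower and 3392 higher genes. For the related pairs, blocking left the values as they were, with an exact p of 0.25, the smallest it allows. The number of reads is unknown, so counting error could not be given.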
